A study of Mus musculus with 12 samples.

Results

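The 37 genes described here encode the contractile, actin-regulating and cell adhesion machinery of embryonic heart cells. They comprise 8 smooth muscle-type genes counted together with Srf, 16 cytoplasmic actins and actin regulators, 4 integrin subunits and 9 adhesion adaptors. They were found by gene symbol in the deposited tables, which hold 15663 genes when joined. All 37 were listed for every library and tested in every comparison, so none was lost to the filter on low values. The hearts came from C57/BL 6 mouse embryos at embryonic day 9.5, and total RNA was sequenced in 12 libraries, 3 in each of 4 groups. All embryos carried a Cre recombinase labelled NkxCre, without a statement of which Nkx gene drives it, and at least 1 floxed Asb2 allele. The double mutant group, dcKO, was labelled Asb2fl/fl and Flnafl/fl. The Asb2 cKO group was labelled Asb2fl/fl, with no floxed Flna. The group called Flna-labelled here was labelled Asb2fl/+ and Flnafl/fl, and the control group Asb2fl/+ with no floxed Flna. The series' design text counts 2 of its groups as controls, and no group without Cre or without a floxed Asb2 allele was analysed here.

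Actin filaments are built from actin monomers and taken apart by cofilins. Tropomyosins lie along them, calponins bind them, alpha-actinins crosslink them and non-muscle myosins pull on them. At focal adhesions, integrins in the membrane bind matrix outside the cell, and talin, kindlin, vinculin, zyxin, paxillin and the ILK-PINCH-parvin complex tie them to the filaments inside. Serum response factor, encoded by Srf, drives many actin and smooth muscle genes from CArG boxes, and the early myocardium expresses several smooth muscle genes for a time. ASB2 is the substrate-binding subunit of a ubiquitin ligase that marks filamins for breakdown. Filamin A, encoded by Flna, crosslinks actin and binds the tails of integrins.

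The libraries held 25954539 to 42473118 reads in listed genes, so 1 read was worth 0.0239 to 0.038 of the deposited unit, which the authors call CPM and which is reads scaled by library size. Asb2 stood at 121 to 153 CPM in dcKO, 77.8 to 163 CPM in Asb2 cKO, 113 to 197 CPM in Flna-labelled and 183 to 289 CPM in control libraries. The Flna-labelled range overlapped those of dcKO and Asb2 cKO, and only the control libraries lay above both. Directions for Asb2fl/fl against Flna-labelled libraries, alone or pooled with control, therefore rest on the Asb2 label. Flna was not lower in the libraries with the Flna label. It stood at 1012 to 1146 CPM in dcKO, 725 to 1032 CPM in Asb2 cKO, 958 to 1011 CPM in Flna-labelled and 490.3 to 721 CPM in control libraries, so every direction given for Flna-labelled libraries rests on the label. Counts over whole genes do not show whether an exon was missing. Xist, the RNA of the inactive X chromosome, stood between 106 and 571 CPM in Asb2 cKO 1 and 3 and control 2 and 3, and at 9.34 CPM or less in the other 8 libraries. Flna lies on the X chromosome, and all 6 libraries with the Flna label were low in Xist while 4 of the 6 without it were high, so the label runs along with Xist. All 16 cardiomyocyte markers were present, with a summed level of 32837 to 50438 CPM in dcKO, 27560 to 46555 CPM in Asb2 cKO, 20514 to 37816 CPM in Flna-labelled and 33738 to 50424 CPM in control libraries. Differences between groups are given as log2 fold changes on the log2(CPM + 0.5) scale, on which low genes appear to change less than they did. Each has its standard error (SE) and a p from limma, adjusted over all genes tested. In whole-heart RNA, fewer cells of a type and less RNA per cell cannot be told apart. Whether replicate libraries came from separate embryos or from pools is not labelled, so the p-values reflect only how far replicate libraries spread, which may be technical.

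Hearts with both Asb2 alleles floxed had higher levels of most of the adhesion adaptors, of the fibronectin receptor subunits, of both non-muscle myosin heavy chains and of some smooth muscle-type genes, and lower levels of Cfl1 and Tpm3. The joint comparison set dcKO and Asb2 cKO (6 Asb2fl/fl libraries) against Flna-labelled and control (6 Asb2fl/+ libraries). The fit had a separate mean for each group and compared the averages of these means. In it 15 of the 37 genes rose and 2 fell. The same fit called 46.1% of 13981 genes, 21.8% higher and 24.3% lower, so the members' total of 17 is near that background while their split is mostly upward. By role, 3 of 8 smooth muscle-type genes rose, 4 of 16 cytoplasmic actins and regulators rose and 2 fell, 2 of 4 integrins rose, and 6 of 9 adhesion adaptors rose. Of these adaptors, only Tln1 and Pxn also passed in a comparison with control. The median log2 fold change was 0.12 over the smooth muscle-type genes, 0.04 over the cytoplasmic genes, 0.30 over the integrins and 0.31 over the adaptors, against -0.01 over all genes tested. This joint comparison was added after the data were seen and uses the same libraries as the comparisons of single groups. The 37 genes were chosen with earlier results of these data known, so their split is not that of a list set in advance. The count ranged from 15 to 18 when any 1 library was left out.

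In the comparisons of single groups, 11 of the 37 genes passed in dcKO against control, 8 higher and 3 lower, where 32.3% of all genes passed, 15.6% higher and 16.7% lower. In dcKO against Flna-labelled, 14 passed, 12 higher and 2 lower, against 31.5% of all genes, 15.1% higher and 16.3% lower. In Asb2 cKO against control, 4 passed, all higher, against 21.6% of all genes, 10.7% higher and 10.9% lower. None passed in Flna-labelled against control, where 0.072% of all genes passed, or in dcKO against Asb2 cKO, where 0.0214% did. Of the 37 genes, 18 passed in at least 1 of these comparisons and 19 in none. The comparisons with control share its libraries, and those with dcKO share the dcKO libraries. The count for Asb2 cKO against control was 1 without control 2 and 2 without Asb2 cKO 2. That for dcKO against control was 6 without dcKO 2 and 5 with Xist as a covariate. The count for dcKO against Flna-labelled was 8 without dcKO 2 and also without Flna-labelled 1 or 2.

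**Figure D1:**
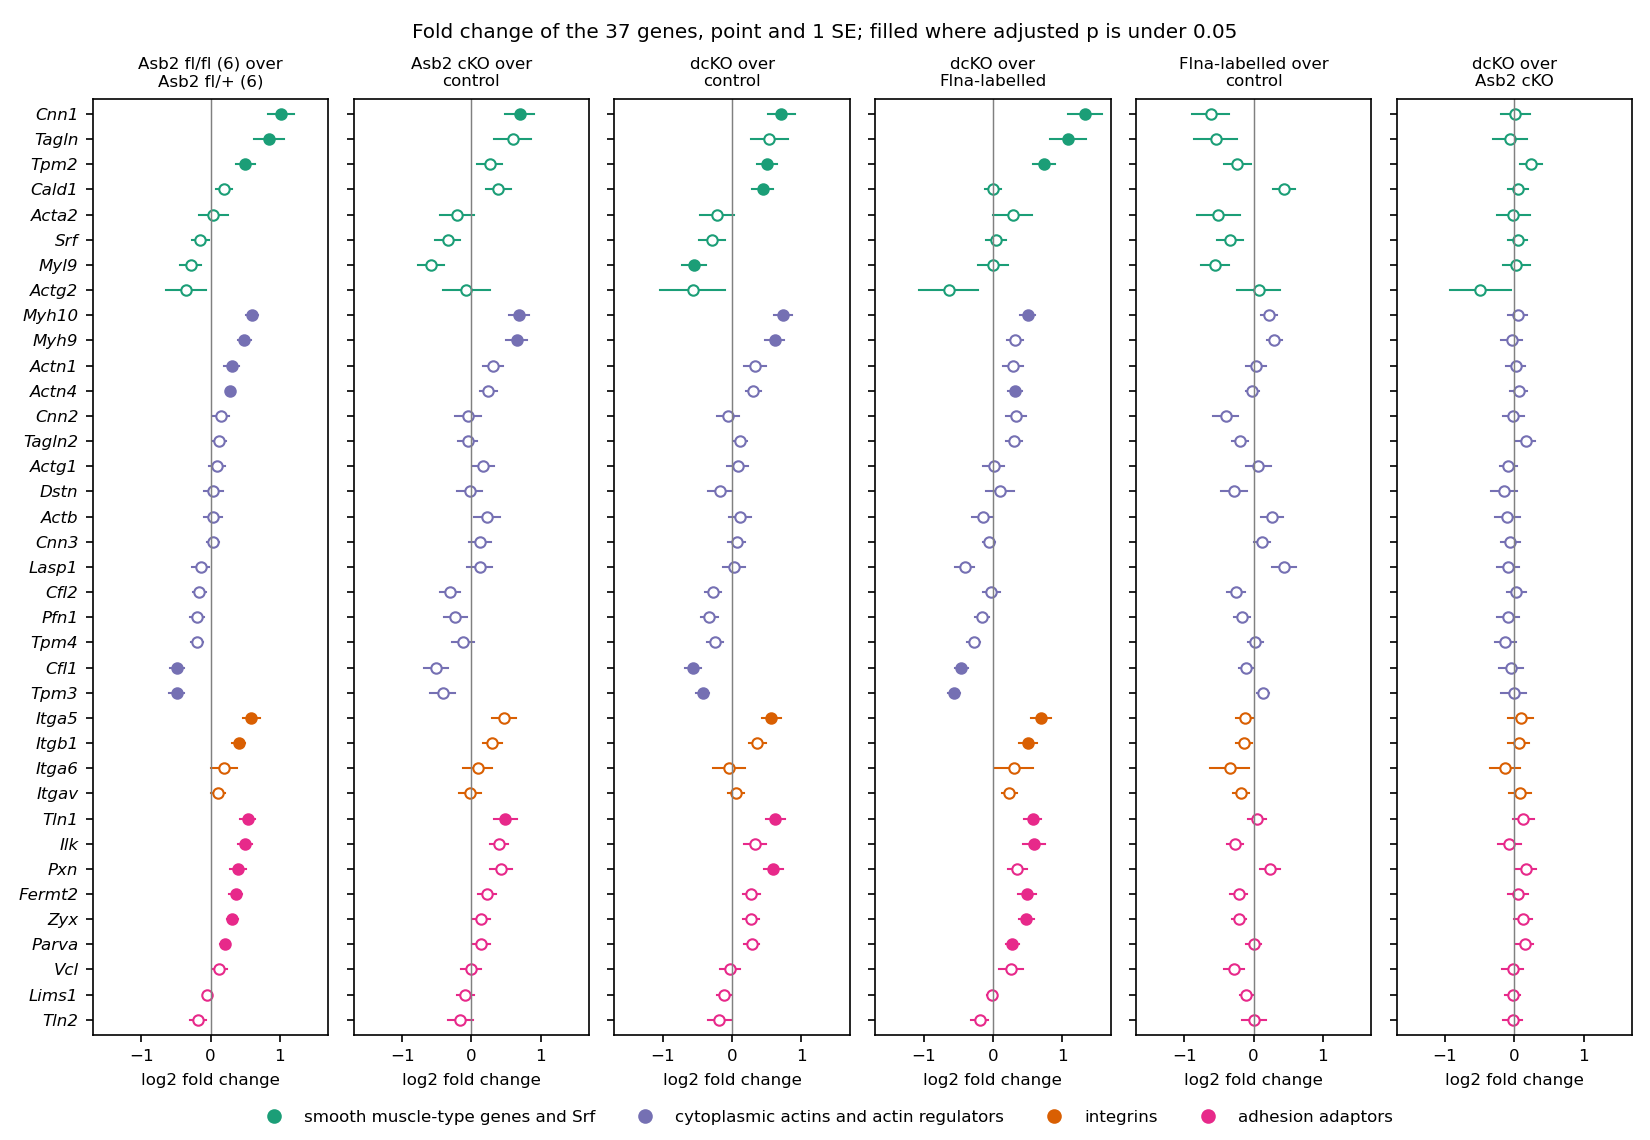
Log2 fold changes of the 37 genes (rows, grouped by role) in 6 comparisons, each point with 1 SE and filled where the adjusted p of limma is under 0.05. Filled points lie mostly to the right of 0 in the first 4 panels, and none is filled in Flna-labelled over control or dcKO over Asb2 cKO.

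Among the smooth muscle-type genes, Cnn1, Tagln and Tpm2 were higher in Asb2fl/fl hearts, and Acta2 and Srf were not. Cnn1 (ENSMUSG00000001349, chr9:22099216-22109630, plus strand, GRCm38) encodes calponin 1, an actin-binding protein of smooth muscle. It stood at 432, 572 and 640.1 CPM in dcKO, 405, 598 and 634 CPM in Asb2 cKO, 185, 169 and 315 CPM in Flna-labelled and 436, 303 and 273 CPM in control libraries. All but control 1 among the Asb2fl/+ libraries lay below every Asb2fl/fl library. Cnn1 was 2.02-fold higher in Asb2fl/fl than in Asb2fl/+ hearts (log2 fold change 1.01, SE 0.183, adjusted p = 0.000844). It rose in dcKO over Flna-labelled (1.33, SE 0.247, adjusted p = 0.00646), in dcKO over control (0.71, SE 0.197, adjusted p = 0.0225) and in Asb2 cKO over control (0.70, SE 0.212, adjusted p = 0.0396). The calls over control were each lost under 8 of 18 alternative settings, among them without replicate 2 or 3 of either group, with adjusted p up to 0.179 in dcKO and 0.126 in Asb2 cKO.

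Tagln (chr9:45929619-45936058, minus strand) encodes transgelin, an actin crosslinker used as an early smooth muscle marker. It was at 1207, 1749 and 1953 CPM in dcKO, 1375, 1425 and 2371 CPM in Asb2 cKO, 619, 629.8 and 1098 CPM in Flna-labelled and 1626, 958 and 862 CPM in control libraries. Control 1 lay within the Asb2fl/fl range and the other 5 Asb2fl/+ libraries below it. Tagln rose in Asb2fl/fl over Asb2fl/+ hearts (log2 fold change 0.84 with SE 0.214, adjusted p = 0.00695) and also in dcKO over Flna-labelled (1.09, SE 0.262, adjusted p = 0.0175). Against control its fold changes were 0.54 in dcKO (SE 0.26, adjusted p = 0.146) and 0.60 in Asb2 cKO (SE 0.271, adjusted p = 0.137), short of the threshold. The call over Flna-labelled was lost without dcKO 2 or without Flna-labelled 1 or 2, with adjusted p up to 0.0607. Pcsk7 overlaps Tagln, and the sources used here do not say whether counting used strand.

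Tpm2 (chr4:43514711-43523765, minus strand) encodes beta-tropomyosin, which lies along the actin filament. Its level was 137, 155 and 166 CPM in dcKO, 102, 148 and 142 CPM in Asb2 cKO, 84.0, 76.4 and 118 CPM in Flna-labelled and 134, 99.8 and 92.3 CPM in control libraries. Every dcKO library lay above all 6 Asb2fl/+ libraries, while Asb2 cKO 1 lay among them. Tpm2 rose in Asb2fl/fl over Asb2fl/+ hearts (log2 fold change 0.50, SE 0.133, adjusted p = 0.00809), in dcKO over Flna-labelled (0.74, SE 0.16, adjusted p = 0.0104) and in dcKO over control (0.51, SE 0.146, adjusted p = 0.0247). The call over control was lost under 8 of 18 alternatives, among them without replicate 2 or 3 of either group, with adjusted p up to 0.225. Tpm2 did not pass in Asb2 cKO over control.

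Myl9, the regulatory light chain of smooth muscle and non-muscle myosin, moved the other way in 1 comparison. It stood at 606, 765 and 884 CPM in dcKO, 579, 740.1 and 899.8 CPM in Asb2 cKO, 693, 589 and 997 CPM in Flna-labelled and 1324, 936 and 1047 CPM in control libraries. The control libraries lay above those of dcKO and Asb2 cKO, and the Flna-labelled range overlapped all the others. Myl9 fell in dcKO against control (log2 fold change -0.55, SE 0.172, adjusted p = 0.0329), a call lost under 9 of 18 alternatives, among them without dcKO 1 or 2 or control 1 or 3, with adjusted p up to 0.138. Its fold change in Asb2 cKO against control, -0.58 (SE 0.192, adjusted p = 0.0515), missed the threshold. Cald1, caldesmon, an actin- and myosin-binding protein that restrains contraction, was at 281, 239 and 257 CPM in dcKO and 151, 231 and 197 CPM in control libraries. Its rise in dcKO against control (0.44, SE 0.152, adjusted p = 0.0489) was lost under 10 of 18 alternatives, among them without any 1 of the dcKO libraries or control 1 or 3, with adjusted p up to 0.148. The same fold change stood in Flna-labelled against control without passing (0.44, SE 0.162, adjusted p = 0.334).

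Acta2 (ENSMUSG00000035783, chr19:34241090-34255590, minus strand), smooth muscle alpha-actin, did not pass in any comparison. It stood at 2284, 3228 and 3793 CPM in dcKO, 2503, 2791 and 4139.8 CPM in Asb2 cKO, 1981, 2064 and 3763 CPM in Flna-labelled and 5017, 2841 and 3118 CPM in control libraries. The groups overlapped throughout, and the spread within a group was about as wide as that between groups. Its log2 fold change was 0.04 in Asb2fl/fl over Asb2fl/+ hearts (SE 0.21, adjusted p = 0.889), 0.29 in dcKO over Flna-labelled (SE 0.283, adjusted p = 0.469), -0.22 in dcKO over control (SE 0.248, adjusted p = 0.521), -0.21 in Asb2 cKO over control (SE 0.25, adjusted p = 0.575), -0.51 in Flna-labelled over control (SE 0.309, adjusted p = 0.501) and -0.02 in dcKO over Asb2 cKO (SE 0.239, adjusted p = 0.999). Actg2, the gamma actin of visceral smooth muscle, was low, at 0.646 to 3.67 CPM in dcKO, 2.09 to 3.38 CPM in Asb2 cKO, 2.74 to 3.09 CPM in Flna-labelled and 1.76 to 4.25 CPM in control libraries. Myh11, the defining myosin heavy chain of mature smooth muscle, was also low, between 2.96 and 8.89 CPM over the 12 libraries.

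Within groups, libraries high in Acta2, Tagln and Cnn1 were mostly also high in heart muscle markers, with Asb2 cKO as the exception. Control 1 had the highest Acta2, Tagln, Cnn1 and Myl9 of its group and a cardiomyocyte marker sum of 50424 CPM, against 33738 and 35814 CPM in control 2 and 3. Flna-labelled 3 likewise had the highest Acta2, Tagln and Cnn1 of its group and a sum of 37816 CPM, against 24208 and 20514 CPM in Flna-labelled 1 and 2. dcKO 3 also had the highest of all 3 genes and the highest sum of its group, 50438 CPM. Asb2 cKO 3 had the highest of the 3 genes, but its sum of 44329 CPM was below the 46555 CPM of Asb2 cKO 2. Cald1 went the other way in control and Flna-labelled, where it was lowest in control 1 and Flna-labelled 3. In Asb2 cKO it was highest in replicate 3, at 283 CPM, and in dcKO it was lowest in replicate 2, at 239 CPM. The part of these sums in the results was not tested.

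**Figure D2:**
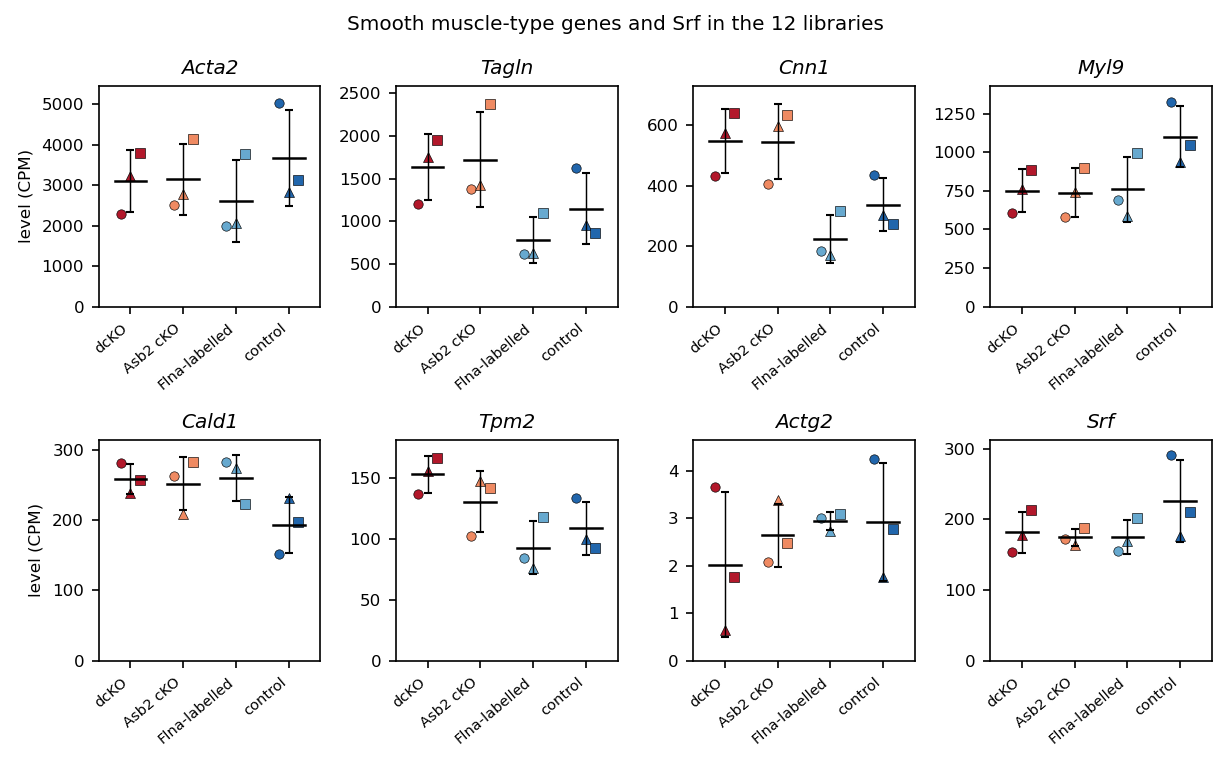
Levels (CPM) of the smooth muscle-type genes and Srf in each library, with the group mean and SD (n = 3 libraries; circle, triangle and square are replicates 1, 2 and 3). Cnn1 and Tagln are high in dcKO and Asb2 cKO, and control 1 stands above the other control libraries for Acta2, Tagln, Cnn1 and Myl9.

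Srf itself (ENSMUSG00000015605, chr17:46548329-46556175, minus strand) stood at 154, 178 and 213 CPM in dcKO, 171, 163 and 188 CPM in Asb2 cKO, 155, 169 and 201 CPM in Flna-labelled and 290.3, 177 and 209.8 CPM in control libraries. The groups overlapped, with control 1 the highest library. Its log2 fold change was -0.15 in Asb2fl/fl over Asb2fl/+ hearts (SE 0.121, adjusted p = 0.331), 0.05 in dcKO over Flna-labelled (SE 0.139, adjusted p = 0.826), -0.29 in dcKO over control (SE 0.185, adjusted p = 0.252), -0.34 in Asb2 cKO over control (SE 0.175, adjusted p = 0.177), -0.34 in Flna-labelled over control (SE 0.182, adjusted p = 0.439) and 0.05 in dcKO over Asb2 cKO (SE 0.141, adjusted p = 0.999). The Srf control region carries the factor's own motif. The CArG box was searched for as an exact match on both strands in RefSeq promoters (GRCm38.p6, 250 bases before to 50 after the gene start), which were given for 30 of the 37 genes. It was found in 6 of them, against 1.81% of the 27025 genes of the promoter table and 1.62% of the 10629 of these that the deposited tables list. The 6 are shown with the box in capitals, since they are the members whose start regions hold it. Distances are counted from the start used for the RefSeq promoter. For Srf, Myl9, Actg1, Cnn2 and Fermt2 that start differs from the gene boundary in GENCODE. Srf, read on the minus strand of chr17:46556190-46556269, holds boxes that begin 82 and 62 bases before the start. Those of Myl9 (chr2:156775278-156775337, plus), Actg1 (chr11:120348551-120348610, minus), Cnn2 (chr10:79988519-79988578, plus), Vcl (chr14:20929148-20929205, plus) and Fermt2 (chr14:45530235-45530294, minus) begin 161, 90, 56, 227 and 204 bases before theirs.
Srf: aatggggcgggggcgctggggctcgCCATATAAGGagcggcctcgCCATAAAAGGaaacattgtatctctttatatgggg
Myl9: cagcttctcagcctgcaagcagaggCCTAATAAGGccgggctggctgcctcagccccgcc
Actg1: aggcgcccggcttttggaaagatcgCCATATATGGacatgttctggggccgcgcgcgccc
Cnn2: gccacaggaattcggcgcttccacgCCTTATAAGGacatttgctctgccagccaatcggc
Vcl: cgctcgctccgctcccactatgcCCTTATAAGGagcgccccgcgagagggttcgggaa
Fermt2: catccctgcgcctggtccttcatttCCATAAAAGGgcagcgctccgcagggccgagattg
Of these 6 genes, only Fermt2 passed in Asb2fl/fl against Asb2fl/+ hearts. Of the 24 genes whose window held no match, 11 rose and 2 fell, and of the 7 without an entry 3 rose. In comparisons of single groups, Fermt2 also rose in dcKO over Flna-labelled and Myl9 fell in dcKO against control. A match is a description of the letters in this window. Boxes outside it or with a mismatch were not searched for, so a gene without a match may still have one.

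Among the cytoplasmic actins and their regulators, both non-muscle myosin heavy chains and both non-muscle alpha-actinins rose in Asb2fl/fl hearts, and Tpm3 and Cfl1 fell. Myh10 (chr11:68691559-68816632, plus strand), the heavy chain of non-muscle myosin IIB, stood at 819.6, 889 and 1006 CPM in dcKO, 885, 908 and 825 CPM in Asb2 cKO, 609.8, 613 and 684 CPM in Flna-labelled and 482, 531 and 622 CPM in control libraries. Every Asb2fl/fl library lay above every Asb2fl/+ library. Groups of 6 that did not overlap were found for 8 of the 37 genes, 6 higher and 2 lower, against 22.1% of all genes, 10.2% higher and 11.9% lower. Myh10 had the smallest p of the members in the joint comparison (0.60 on the log2 scale, SE 0.0849, adjusted p = 0.000129) and passed in dcKO over control (0.73, SE 0.133, adjusted p = 0.00309), Asb2 cKO over control (0.69, SE 0.144, adjusted p = 0.00916) and dcKO over Flna-labelled (0.51, SE 0.11, adjusted p = 0.00964). The call in Asb2 cKO over control was lost with replicate number as a block, where no member passed.

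Myh9 (chr15:77760587-77842175, minus strand), the heavy chain of non-muscle myosin IIA, was at 502, 386 and 421 CPM in dcKO, 481, 473 and 386 CPM in Asb2 cKO, 352, 345 and 346 CPM in Flna-labelled and 256, 268 and 329 CPM in control libraries. The Flna-labelled libraries lay between the Asb2fl/fl and the control libraries without overlapping either. Myh9 rose in Asb2fl/fl over Asb2fl/+ hearts (log2 fold change 0.49, SE 0.0927, adjusted p = 0.000965), in Asb2 cKO over control (0.65, SE 0.151, adjusted p = 0.0133) and in dcKO over control (0.62, SE 0.137, adjusted p = 0.00788). In Flna-labelled over control it had the smallest p of the 37 genes and did not pass (0.30, SE 0.111, adjusted p = 0.334). Its call in Asb2 cKO was lost under 3 of 18 alternatives, among them without control 1 or 2, with adjusted p up to 0.0609. Myh9 did not pass in dcKO over Flna-labelled.

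Actn4 and Actn1 encode the alpha-actinins that crosslink actin outside the sarcomere. Actn4 stood at 396, 410.1 and 465 CPM in dcKO, 402, 416 and 397 CPM in Asb2 cKO, 344, 312 and 358 CPM in Flna-labelled and 362, 319 and 344 CPM in control libraries, again without overlap between Asb2fl/fl and Asb2fl/+. It rose by a small amount (log2 fold change 0.29, SE 0.0714, adjusted p = 0.00554), and passed also in dcKO over Flna-labelled (0.32, SE 0.1, adjusted p = 0.0382), where the call was lost under 5 of 18 alternatives, among them without dcKO 2 or 3 or Flna-labelled 1 or 2, with adjusted p up to 0.145. Actn1 rose in the joint comparison (0.30, SE 0.104, adjusted p = 0.029). It had a median of 288 CPM and a range of 257 to 357 CPM in Asb2fl/fl libraries, against a median of 241 CPM and a range of 195 to 280.4 CPM in Asb2fl/+ libraries, and the 2 sets overlapped. That call was lost when any 1 of 5 libraries was left out (dcKO 3, Asb2 cKO 3, Flna-labelled 1 or 2, or control 2). Neither Actn4 nor Actn1 passed in dcKO or Asb2 cKO over control.

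Cfl1 (chr19:5490455-5495201, plus strand) encodes cofilin 1, which severs filaments. Its level was 658, 666 and 642 CPM in dcKO, 734, 524 and 807 CPM in Asb2 cKO, 854, 923 and 916 CPM in Flna-labelled and 995, 1031 and 884 CPM in control libraries. All 6 Asb2fl/fl libraries lay below all 6 Asb2fl/+ libraries. Cfl1 fell by 0.48 on the log2 scale in Asb2fl/fl hearts (SE 0.0998, adjusted p = 0.00164), by 0.56 in dcKO against control (SE 0.111, adjusted p = 0.00473) and by 0.45 in dcKO against Flna-labelled (SE 0.0898, adjusted p = 0.00661). In Asb2 cKO against control the change was -0.51 (SE 0.176, adjusted p = 0.0588). Cfl1 shares 8.22% of its 50-base windows with other transcripts and overlaps Snx32, so part of its count is uncertain.

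Tpm3, a tropomyosin gene of slow muscle and of the cytoskeleton, was at 121, 131 and 119.8 CPM in dcKO, 149, 92.0 and 141 CPM in Asb2 cKO, 177, 197 and 177 CPM in Flna-labelled and 162, 169.9 and 169 CPM in control libraries. The Asb2fl/fl and Asb2fl/+ libraries did not overlap. Tpm3 fell by 0.49 on the log2 scale in Asb2fl/fl hearts (SE 0.105, adjusted p = 0.00207), by 0.56 in dcKO against Flna-labelled (SE 0.0868, adjusted p = 0.00225) and by 0.43 in dcKO against control (SE 0.0957, adjusted p = 0.0083). It did not pass in Asb2 cKO against control. Transcripts of 5 other genes share many 50-base windows with Tpm3, so reads could have been split or dropped and its level is uncertain. The same holds for Actg1, where the shared part is 45.6%, and to a lesser degree for Cnn3 (14.1%), Actb (12.2%), Tpm4 (12.1%) and Ilk (11.3%).

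Actb, cytoplasmic beta-actin, stood at 2030.3, 1558 and 1638 CPM in dcKO, 2269, 1569 and 1796 CPM in Asb2 cKO, 1989, 2223 and 1597 CPM in Flna-labelled and 1314, 1794 and 1720.0 CPM in control libraries. All 4 groups overlapped. Its log2 fold change was 0.04 in Asb2fl/fl over Asb2fl/+ hearts (SE 0.126, adjusted p = 0.835), -0.15 in dcKO over Flna-labelled (SE 0.157, adjusted p = 0.497), 0.12 in dcKO over control (SE 0.16, adjusted p = 0.602), 0.22 in Asb2 cKO over control (SE 0.187, adjusted p = 0.418), 0.27 in Flna-labelled over control (SE 0.159, adjusted p = 0.483) and -0.10 in dcKO over Asb2 cKO (SE 0.18, adjusted p = 0.999). The other 9 cytoplasmic genes passed in none of the comparisons: Actg1, Tagln2, Cnn2, Cnn3, Tpm4, Cfl2, Pfn1 (profilin, which delivers monomers), Dstn (destrin, a cofilin relative) and Lasp1.

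Of the integrins, the fibronectin receptor pair Itga5 and Itgb1 rose. Itga5 (chr15:103344286-103366763, minus strand) stood at 209, 259 and 285 CPM in dcKO, 181, 291 and 243 CPM in Asb2 cKO, 148, 136 and 179 CPM in Flna-labelled and 177, 149 and 179.5 CPM in control libraries. Asb2 cKO 1 was just above the highest Asb2fl/+ library, so the sets did not overlap. Itga5 rose in Asb2fl/fl over Asb2fl/+ hearts (log2 fold change 0.59, SE 0.122, adjusted p = 0.00178), in dcKO over Flna-labelled (0.70, SE 0.142, adjusted p = 0.00779) and in dcKO over control (0.57, SE 0.136, adjusted p = 0.0112), and did not pass in Asb2 cKO over control (0.48, SE 0.175, adjusted p = 0.0745).

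Itgb1, the beta subunit that pairs with all 3 alpha subunits among the members (Itga5, the laminin-binding Itga6 and Itgav), was at 882, 1045 and 1129 CPM in dcKO, 876, 1044 and 999 CPM in Asb2 cKO, 682, 658 and 812 CPM in Flna-labelled and 784, 739.7 and 838 CPM in control libraries. The Asb2fl/fl and Asb2fl/+ libraries did not overlap. Itgb1 rose in the joint comparison (log2 fold change 0.40 with SE 0.0898, adjusted p = 0.00274) and also in dcKO over Flna-labelled (0.50, SE 0.129, adjusted p = 0.0189). It did not pass in dcKO over control (0.37, SE 0.128, adjusted p = 0.0511), Asb2 cKO over control (0.30, SE 0.141, adjusted p = 0.144), Flna-labelled over control (-0.14, SE 0.112, adjusted p = 0.596) or dcKO over Asb2 cKO (0.06, SE 0.149, adjusted p = 0.999). Itga6 and Itgav did not pass in any comparison. Itga6 ranged from 490.5 to 846 CPM in Asb2fl/fl and from 398 to 837 CPM in Asb2fl/+ libraries, and Itgav from 86.4 to 127 CPM in Asb2fl/fl and from 85.3 to 115 CPM in Asb2fl/+ libraries.

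Among the adhesion adaptors, Tln1, Ilk, Pxn, Fermt2, Zyx and Parva rose in the joint comparison, and Vcl, Lims1 and Tln2 did not pass. Ilk, Fermt2, Zyx and Parva did not pass in dcKO over control or in Asb2 cKO over control. Tln1 (chr4:43531519-43562691, minus strand), talin 1, which binds and activates integrins, stood at 398, 402 and 499 CPM in dcKO, 357, 467 and 363 CPM in Asb2 cKO, 276, 269 and 326 CPM in Flna-labelled and 281, 239 and 323 CPM in control libraries. All 6 Asb2fl/fl libraries lay above all 6 Asb2fl/+ libraries. Tln1 rose in the joint comparison (log2 fold change 0.53, SE 0.104, adjusted p = 0.00114), in dcKO over control (0.62, SE 0.14, adjusted p = 0.00839), in dcKO over Flna-labelled (0.57, SE 0.122, adjusted p = 0.00899) and in Asb2 cKO over control (0.49, SE 0.16, adjusted p = 0.0495). The last of these was lost under 11 of 18 alternatives, among them without any 1 of the Asb2 cKO libraries or control 1 or 2, with adjusted p up to 0.183, and the other calls under none. Listed genes overlap Tln1 (Creb3), Zyx (Epha1) and Vcl (Ap3m1) as well, with the same limit as for Tagln.

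Zyx, zyxin, a LIM protein of adhesions under tension, was at 195, 203 and 242 CPM in dcKO, 177, 210.1 and 197 CPM in Asb2 cKO, 156, 143 and 157 CPM in Flna-labelled and 183, 158 and 189 CPM in control libraries. The dcKO libraries lay above all Asb2fl/+ libraries, and Asb2 cKO 1 among the control libraries. It rose by a log2 fold change of 0.31 in the joint comparison (SE 0.08, adjusted p = 0.00631) and of 0.48 in dcKO over Flna-labelled (SE 0.104, adjusted p = 0.00909). Pxn, paxillin, a scaffold for adhesion signalling, was at 72.6, 55.7 and 68.2 CPM in dcKO, 59.8, 67.2 and 48.7 CPM in Asb2 cKO, 55.2, 55.5 and 42.7 CPM in Flna-labelled and 37.9, 42.1 and 49.4 CPM in control libraries. dcKO and control did not overlap, and the other groups lay between and across them. Pxn rose in dcKO over control (0.60, SE 0.141, adjusted p = 0.0105), a call kept under all 18 alternatives, and in the joint comparison (0.39, SE 0.11, adjusted p = 0.0105). It did not pass with limma in Asb2 cKO over control or in dcKO over Flna-labelled.

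Of the ILK-PINCH-parvin complex, Ilk and Parva passed and Lims1 did not. Ilk, the pseudokinase at its centre, had a median of 226 CPM and a range of 167 to 264 CPM in Asb2fl/fl libraries, against a median of 158 CPM and a range of 127 to 187 CPM in Asb2fl/+ libraries. It rose in the joint comparison (log2 fold change 0.50 with SE 0.106, adjusted p = 0.00214) and also in dcKO over Flna-labelled (0.59, SE 0.166, adjusted p = 0.0281). Parva, alpha-parvin, which links ILK to actin, rose by 0.21 in the joint comparison (SE 0.0736, adjusted p = 0.0322) and by 0.28 in dcKO over Flna-labelled (SE 0.0924, adjusted p = 0.046), and each call was lost under 8 alternatives, for the second among them without dcKO 2 or 3 or Flna-labelled 1 or 2, and for the first without any 1 of 7 libraries (dcKO 2 or 3, Asb2 cKO 2, Flna-labelled 1 or 2, control 1 or 2). Lims1, the PINCH subunit, was the least variable of the members by the ratio of its highest to its lowest library, at 128 to 132 CPM in dcKO, 129.6 to 136 CPM in Asb2 cKO, 130.2 to 131 CPM in Flna-labelled and 131 to 154 CPM in control libraries. Fermt2, kindlin 2, which activates integrins together with talin, stood at 316, 331 and 407 CPM in dcKO, 302, 363 and 349 CPM in Asb2 cKO, 223, 235 and 289 CPM in Flna-labelled and 309, 278 and 278 CPM in control libraries. Asb2 cKO 1 lay below control 1, so the sets overlapped. Fermt2 rose in the joint comparison (0.36, SE 0.0917, adjusted p = 0.0061) and in dcKO over Flna-labelled (0.50, SE 0.133, adjusted p = 0.0223). The calls of Ilk and Fermt2 over Flna-labelled were lost without dcKO 2 or 3 or Flna-labelled 1 or 2. Ilk overlaps Rrp8 and Taf10.

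Vcl, vinculin, which ties talin to actin under load, stood at 223, 251 and 321 CPM in dcKO, 241, 289.8 and 268 CPM in Asb2 cKO, 198, 195 and 269.9 CPM in Flna-labelled and 289, 233 and 283 CPM in control libraries. The 4 groups overlapped. Its log2 fold change was 0.13 in Asb2fl/fl over Asb2fl/+ hearts (SE 0.112, adjusted p = 0.37), 0.26 in dcKO over Flna-labelled (SE 0.169, adjusted p = 0.269), -0.03 in dcKO over control (SE 0.148, adjusted p = 0.896), -0.01 in Asb2 cKO over control (SE 0.14, adjusted p = 0.976), -0.29 in Flna-labelled over control (SE 0.145, adjusted p = 0.412) and -0.02 in dcKO over Asb2 cKO (SE 0.155, adjusted p = 0.999). Tln2, the second talin, ranged from 98.9 to 132 CPM in Asb2fl/fl and from 98.4 to 153 CPM in Asb2fl/+ libraries.

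**Figure D3:**
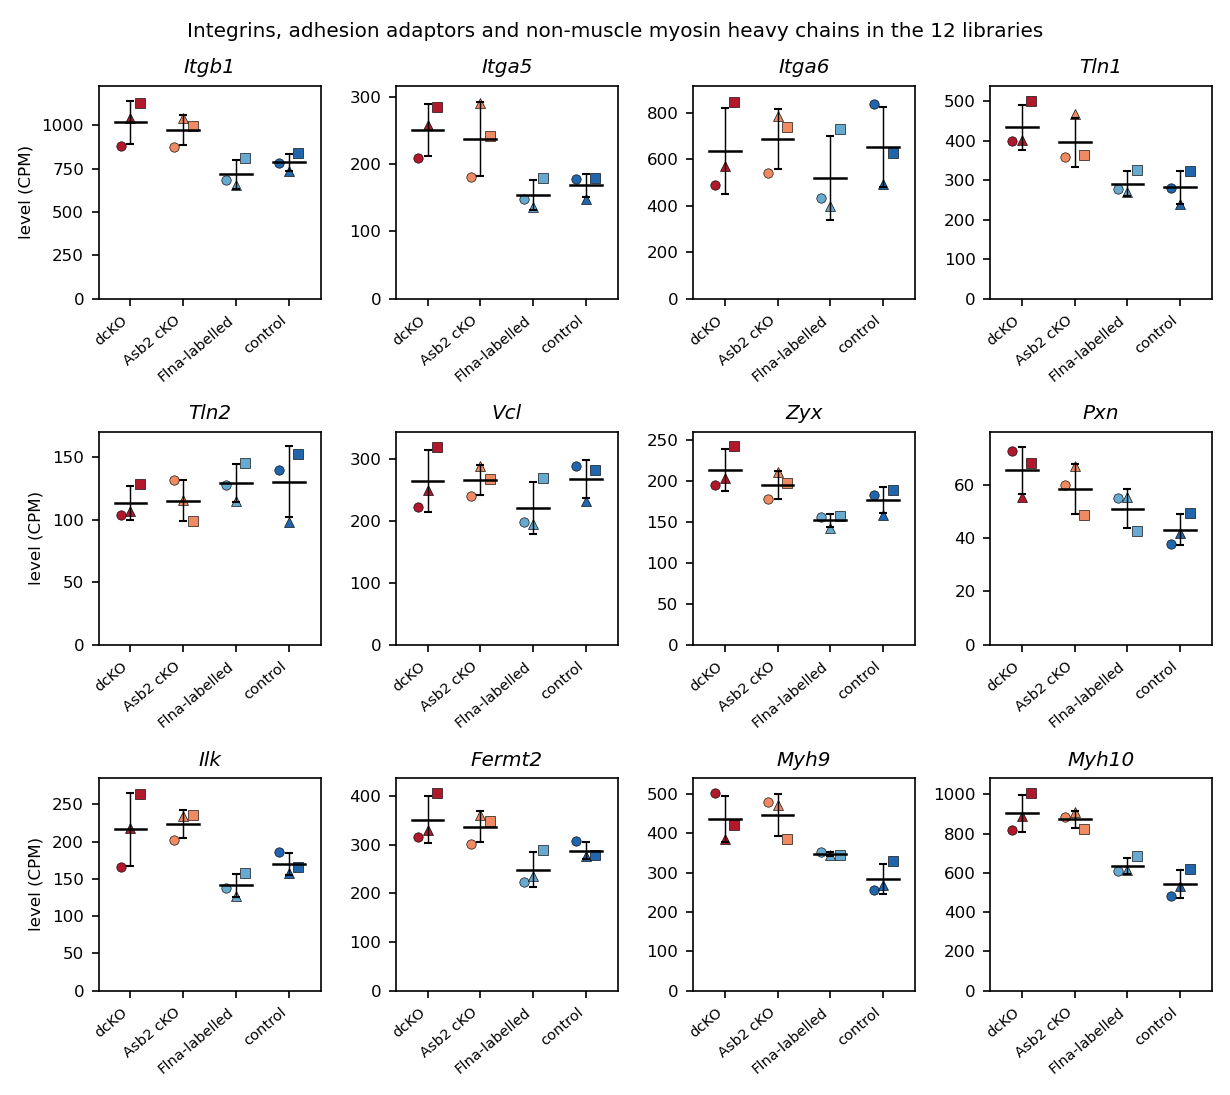
Levels (CPM) of 3 integrin subunits, 7 adhesion adaptors and the 2 non-muscle myosin heavy chains in each library, with the group mean and SD (n = 3 libraries; circle, triangle and square are replicates 1, 2 and 3). Itgb1, Itga5, Tln1, Myh9 and Myh10 are higher in every dcKO and Asb2 cKO library than in any Flna-labelled or control library, while Vcl, Tln2 and Itga6 overlap.

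The comparisons of Asb2 cKO with control and of dcKO with Flna-labelled share no library, and both set Asb2fl/fl against Asb2fl/+ hearts. The fold changes of 25 of the 37 genes (67.6%) had the same sign in both, against 76.5% of 13786 genes. By role, this held for 4 of 8 smooth muscle-type genes, 10 of 16 cytoplasmic genes, 3 of 4 integrins and 8 of 9 adaptors. Cnn1, Myh10 and Tln1 passed in both, which is 75.0% of the 4 called in Asb2 cKO and 21.4% of the 14 called in dcKO. For all genes these shares were 64.6% and 44.0%.

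**Figure D4:**
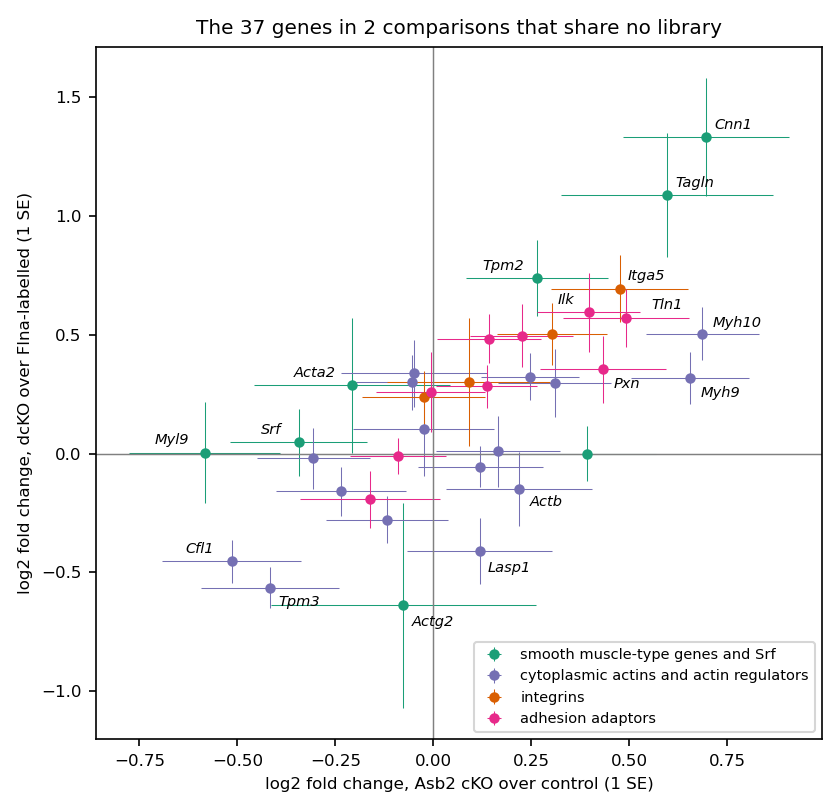
Log2 fold change of the 37 genes in Asb2 cKO over control (horizontal axis) and dcKO over Flna-labelled (vertical axis), with 1 SE on each axis and colours by role. Cnn1, Tagln, Myh10, Tln1 and Itga5 lie in the upper right, and Cfl1 and Tpm3 in the lower left.

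No effect of the Flna label on these genes passed a test. In Flna-labelled against control the log2 fold changes of the 37 genes ran from -0.62 for Cnn1 (SE 0.273, adjusted p = 0.39) to 0.44 for Cald1, and 0 passed with limma, edgeR or DESeq2, with 5 at an unadjusted limma p under 0.05. That last count was 20 without Flna-labelled 3, and 0 without Flna-labelled 1 or 2 or control 1, while the count passing was 0 in each case. In dcKO against Asb2 cKO they ran from -0.49 for Actg2 to 0.24 for Tpm2, which had the smallest p (SE 0.158, adjusted p = 0.999), and 0 had an unadjusted p under 0.05. With all 6 libraries of the Flna label against the 6 without it, a comparison also added after the data were seen, 0 of the 37 passed with limma, edgeR or DESeq2, and limma called 0.0% of 13981 genes. Of the 37, 1 had an unadjusted limma p under 0.05. With Xist as a covariate 4 did and without Flna-labelled 3 there were 10. Without any other 1 library the count was 0 to 3. The log2 fold changes there ran from -0.30 to 0.24, with SE from 0.062 to 0.286, which sets the size of a difference that these libraries could show. The interaction, the change of dcKO over Flna-labelled minus that of Asb2 cKO over control, passed for 0 of the 37 genes and for 0.0% of all genes with limma. Of all genes 1372 had an unadjusted p under 0.05, 0 of them members, and DESeq2 called 71 genes and 0 members. The count of members at an unadjusted p under 0.05 was 7 without Flna-labelled 3, 6 without Asb2 cKO 2, 4 without dcKO 1, 3 without control 2 and 0 to 2 without any other library. Zyx had the smallest p of the members (interaction 0.34, SE 0.16, adjusted p = 0.507). It was 0.49 for Acta2 (SE 0.42, adjusted p = 0.681), 0.39 for Srf (SE 0.242, adjusted p = 0.587), -0.37 for Actb (SE 0.252, adjusted p = 0.619), 0.27 for Vcl (SE 0.223, adjusted p = 0.677) and 0.20 for Itgb1 (SE 0.18, adjusted p = 0.696). The median interaction was 0.48 over the smooth muscle-type genes, against 0.01 over all genes. Whether the Flna label altered the response to Asb2 was therefore not resolved for any member.

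The balance within some gene families differed with the Asb2 label. A share is a gene's part of the CPM per kb of its family in 1 library, so it does not depend on how libraries were scaled. Of the 2 talins, Tln1 made up 83.1, 82.8 and 83.3% in dcKO, 77.7, 83.9 and 82.5% in Asb2 cKO, 73.5, 75.02 and 74.2% in Flna-labelled and 72.01, 75.8 and 73.1% in control libraries. The Asb2fl/fl and Asb2fl/+ libraries did not overlap. The means were 82.2% in Asb2fl/fl and 73.9% in Asb2fl/+ libraries, and in an exact two-sided permutation test over the 400 regroupings within Flna label the p was 0.005, the smallest it can give (adjusted p = 0.0256 over 41 shares of 9 families). Cnn1 made up 32.1% of the calponins in Asb2fl/fl libraries, with a range of 26.1 to 37.2%, against a range of 14.2 to 25.8% in Asb2fl/+ libraries. Tpm2 made up 6.36% of the tropomyosins in Asb2fl/fl and 4.51% in Asb2fl/+ libraries, with a range of 5.27 to 6.99% in Asb2fl/fl against 4.13 to 4.95% in Asb2fl/+. The exact permutation p was 0.005 for each of these too.

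In the integrin alpha family Itga5 made up 29.8% in Asb2fl/fl and 24.9% in Asb2fl/+ libraries (exact permutation p = 0.005, adjusted p = 0.0256), with overlap between the sets. Tagln made up 92.1% of the transgelins in Asb2fl/fl and 87.0% in Asb2fl/+ libraries (exact permutation p = 0.01, adjusted p = 0.0456). The share of Acta2 in the actins did not pass, at 18.1% in Asb2fl/fl and 21.2% in Asb2fl/+ libraries (exact permutation p = 0.015, adjusted p = 0.0513), and the sets overlapped. Actc1, cardiac alpha-actin, was the largest part in every library at 59.8 to 71.9%. In all, 9 of the 41 shares had an adjusted p under 0.05. Shares within a family add up to the whole, so they are not separate results. They also come from the same libraries as the fold changes, and no count over other gene families was made to set beside them. The share of Tln2 is the complement of that of Tln1, and both entered the count and the adjustment. For 3 libraries against 3 the exact test cannot go below 0.1, so the shares of single groups are given without a call.

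**Figure D5:**
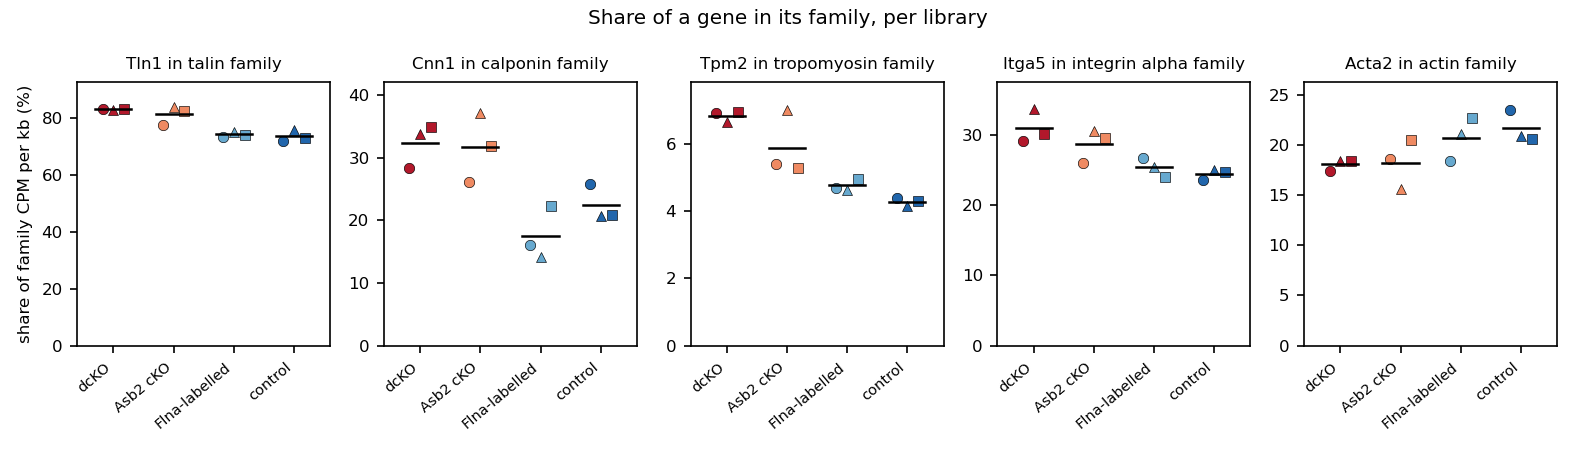
Share of Tln1, Cnn1, Tpm2, Itga5 and Acta2 in the CPM per kb of their gene families (%, axes from 0) in each library, with the group mean as a line (circle, triangle and square are replicates 1, 2 and 3). The Tln1, Cnn1 and Tpm2 shares of all dcKO and Asb2 cKO libraries lie above those of all Flna-labelled and control libraries.

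Beyond the 37 genes, other parts of the same machinery were counted from lists chosen with earlier results of these data known. In Asb2fl/fl against Asb2fl/+ hearts, 20 of 46 other focal adhesion adaptors and kinases rose and 3 fell, against 21.8% higher and 24.3% lower over all genes. The smallest p belonged to Ptk2b, the adhesion kinase PYK2, at 99.7 ± 26.8 CPM in dcKO, 88.3 ± 16.3 CPM in Asb2 cKO, 24.0 ± 5.73 CPM in Flna-labelled and 34.4 ± 6.73 CPM in control libraries (SD, n = 3 each). Its log2 fold change was 1.68 (SE 0.16), and those of Bcar1, the scaffold p130Cas, and Lpp, a zyxin relative, were 0.59 and 0.96. Among the capping, severing and crosslinking proteins 11 of 37 rose and 8 fell. Enah, a promoter of filament elongation, rose by 0.71 on the log2 scale, and Tagln3, the neuronal transgelin, fell by 1.69.

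The remaining lists held genes of both directions, as all genes did (21.8% higher, 24.3% lower), and their named genes are values of single genes, not results of a list. Of the Arp2/3, WAVE and formin nucleators 7 of 29 rose and 6 fell, among them the formin Daam1 (log2 fold change 0.89), the nucleator Spire1 (0.63) and the Arp2/3 subunit Arpc5l (-0.72). Of the other integrin subunits 3 of 14 rose and 2 fell. The collagen-binding Itga1 rose by 1.02 and Itgb8 fell by 0.56. Itga11 also rose by 1.08, from low levels, its group means being 0.856 to 2.88 CPM. Of the other smooth muscle contractile genes 4 of 14 rose and 2 fell. That list also held Acta1 and the cardiac alpha-actin Actc1, so it was not limited to smooth muscle genes. Its named genes were Ppp1r12a, the targeting subunit of myosin phosphatase, at 0.51, Csrp1 at 0.70 and Smtn, smoothelin, at -0.32. Of 7 SRF cofactors and ternary complex factors 2 rose and 2 fell, among them Mrtfb, a cofactor that senses free actin (0.35), Fhl2 (-0.50) and Elk4 (-0.31). In Flna-labelled against control and in dcKO against Asb2 cKO, 0 genes of these lists passed with limma.

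Markers of other cell types were counted in the same contrast, where 46.1% of all genes passed, 21.8% higher and 24.3% lower. The smooth muscle count below is near that share, and the count for pharyngeal endoderm and surface epithelium is under it in total. Of the 11 endocardial and endothelial markers 7 rose and 0 fell, with a sum of 1463 to 1901 CPM in dcKO, 1151 to 1670 CPM in Asb2 cKO, 882 to 1120 CPM in Flna-labelled and 994 to 1213 CPM in control libraries. Of the 13 markers of pharyngeal endoderm and surface epithelium 4 rose and 0 fell, with a sum of 1044 to 1303 CPM in dcKO, 1051 to 1310 CPM in Asb2 cKO, 346 to 534 CPM in Flna-labelled and 322 to 418 CPM in control libraries. All 13 primitive erythroid markers fell, with a sum of 377 to 617 CPM in dcKO, 533 to 1237 CPM in Asb2 cKO, 3137 to 4024 CPM in Flna-labelled and 7585 to 8244 CPM in control libraries. Of the 12 smooth muscle markers, which include 4 members, 4 rose and 2 fell, with a sum of 5512 to 8760 CPM in dcKO, 5903 to 9733 CPM in Asb2 cKO, 3949 to 6878 CPM in Flna-labelled and 5648 to 9244 CPM in control libraries. The part of these cells in the results for the 37 genes was not tested. Fold changes over all genes also followed gene length, with a rank correlation of 0.19 across 13981 genes in the joint comparison, 0.25 in dcKO over control and 0.10 in dcKO over Flna-labelled. With that trend removed, 14 members rose and 3 fell in the joint comparison: Parva no longer passed and Tln2 fell.

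In the authors' deposited table, 6 of the 37 genes were higher and 2 lower at an FDR under 0.05 in Asb2 cKO against control, where 26.6% of its genes passed, 13.2% higher and 13.5% lower. In the authors' deposited table for dcKO against control 8 were higher and 3 lower, where 28.9% of its genes passed, 14.2% higher and 14.7% lower. In the authors' deposited tables for Flna-labelled against control and dcKO against Asb2 cKO 0 members passed, where 0.78% and 0.145% of their genes did. Cnn1, Myh9, Myh10, Tln1, Itga5 and Pxn were higher and Cfl1 and Myl9 lower in the authors' deposited tables for both Asb2 cKO and dcKO against control. Flna, which is not a member, was higher than in control in each of the authors' deposited tables with control. Its log2 fold change was 0.74 in Flna-labelled (FDR 0.00319), 0.84 in dcKO (FDR 8.71e-06) and 0.57 in Asb2 cKO (FDR 0.00434).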

How the data were processed

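Total RNA of mouse hearts was sequenced in 12 libraries. The submitters' processing notes name STAR, HTSeq, edgeR and the mm10 genome, without versions, annotation, strand use or treatment of multiply mapping reads. The authors deposited 4 tables, each of 2 groups. Per the file headers the deposited expression values are CPM, and by their values they are a signal in which the authors scaled gene counts by 1 number per library. Of these values 100.0% were whole multiples of the value of 1 read within 0.01 read, and the columns summed to 942334 to 1051801. The plan had assumed plain CPM. The deposited log2 fold changes, p-values and FDR values are the authors' own. A further 12 columns without a header were not used. Tables were joined on gene identifier, and values of shared libraries differed by at most 4.4e-06 CPM. Positions of genes come from GENCODE M21 (GRCm38), and promoter windows and motif distances from the RefSeq promoters (GRCm38.p6).

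Groups were compared with limma 3.58.1 (trend, robust) in R 4.3.3 on log2(CPM + 0.5), for genes whose mean over the libraries fitted reached 1 CPM, with Benjamini-Hochberg adjustment over all genes and a threshold of 0.05. Fits of 2 groups used 6 libraries, and joint fits 12. The steps were tested on simulated counts. The 37 members and all gene lists were chosen with earlier results of these data known. Values are given for members that passed (the 8 smallest p where more passed) and for Srf, Acta2, Actb, Vcl and Itgb1 in each comparison, for the smallest p where none passed, and for up to 3 genes of each list. Some list results are not reported here. The values of Tagln, Cald1, Myl9, Actn4 and the other members beyond that rule complete the roles. Family shares used CPM per kb of deposited gene length. Windows of 50 bases were compared between GENCODE M21 transcripts.

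Alternatives were pseudocounts of 0.1 and 2, no filter or 5 CPM, median of ratios, edgeR 4.0.16, DESeq2 1.42.0 (both on recovered reads), 1 fit of all 4 groups, a replicate block, removal of the gene length trend (lowess span 0.3), Xist as a covariate, limma with neither trend nor robust, and leaving out each library. The comparisons that pool groups were added after the data were seen. No library was a copy of another of its group: between replicates of a group the chi-square per gene averaged 20.9 to 126.2. Libraries of different groups were not compared in this way. On the recovered reads edgeR called 2837 genes in Asb2 cKO against control, 4400 in dcKO against control, 4291 in dcKO against Flna-labelled and 6407 in Asb2fl/fl against Asb2fl/+ hearts.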

Additional observations from a re-analysis of the deposited data

How the results depend on the processing

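No fold change of a member reversed while called. Of 1749 member fold changes recomputed, 1637 kept their side of the threshold, 105 lost a call and 7 gained one. A further 38 changed sign where neither value was called, and these are counted as kept. Of 1464 family shares recomputed, 6 moved by more than the spread between libraries. In Asb2 cKO against control DESeq2 called 9 members, limma with neither trend nor robust 2, and leaving out 1 library gave 1 to 5 members and 1581 to 2508 genes. In dcKO against control the Xist covariate left 5 members and 2669 genes, neither trend nor robust left 7 members, and leaving out 1 library gave 6 to 11 members and 2875 to 4342 genes. In dcKO against Flna-labelled leaving out 1 library gave 8 to 18 members and 2712 to 4623 genes. In Asb2fl/fl against Asb2fl/+ hearts the same range was 15 to 18 members. In Flna-labelled against control, where 10 genes passed, the count of all genes was 2 with edgeR, 244 with DESeq2, 2 in the joint fit, 6 without the length trend, 3 with Xist, 0 with neither trend nor robust and 0 to 98 without 1 library. In dcKO against Asb2 cKO, with 3 genes, it was 14 with DESeq2, 0 in the joint fit, 0 with Xist and 2 to 26 without 1 library. For the interaction it was 71 with DESeq2, 5 with Xist and 0 to 18 without 1 library, and for the Flna label over 12 libraries 34 with DESeq2 and 0 to 4 without 1 library. The causes were not tested. Fewer libraries per fit leave fewer degrees of freedom.

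Whether the replicate numbers pair the libraries is not labelled and was not resolved. Correlations of same-numbered libraries ran from -0.46 to 0.43, and 0 of 6 pairs of groups had all above 0.1. Between Flna-labelled and dcKO each correlation was positive, at 0.27, 0.03 and 0.43. Differently numbered libraries were not correlated, so this check cannot exclude a pairing. With the replicate block, members called were 0 in Asb2 cKO against control (1557 genes), 9 in dcKO against control (4358 genes), 23 in dcKO against Flna-labelled (5474 genes) and 0 in Flna-labelled against control (1 gene).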
